A study of Homo sapiens with 11 samples.

Results

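A group of 10 human miRNAs from the upstream end of the imprinted miRNA region on chromosome 14 were followed across 6 tumor cell lines: hsa-miR-493-3p, hsa-miR-337-3p, hsa-miR-337-5p, hsa-miR-431-5p, hsa-miR-433-3p, hsa-miR-127-3p, hsa-miR-127-5p, hsa-miR-432-5p, hsa-miR-136-5p and hsa-miR-370-3p. They were taken by name from the deposited miRNA tables and are 10 of the 2588 mature miRNAs listed there. The group was selected on shared position and chosen by name with the CPM levels in these same libraries already known, so that differences in level between the lines are given as a description without a test. All 10 miRNAs were in every table, each on a single row.

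Small RNA libraries were sequenced from untreated parental cells of A549 (lung), ES2 (ovary), MV3 (melanoma), PANC1 (pancreas), BE(2)C (neuroblastoma) and HepG2 (liver), with 2 biological replicates per line except for PANC1, which had 1 library. The cells carried no transgene, knockdown or drug treatment, and all lines grew in DMEM with fetal bovine serum except BE(2)C, which grew in a mix of EMEM and DMEM/F12. Harvest was 48 h after seeding, but the treatment protocol gives 24 h for BE(2)C whereas its sample characteristics give 48 h. A NEXTflex small RNA kit with 50 ng of total RNA was used for the A549, ES2, MV3 and PANC1 libraries, whereas those of BE(2)C and HepG2 were made and sequenced by Novogene. The cell line and the preparation therefore cannot be told apart in a comparison of BE(2)C or HepG2 with the other 4 lines. Each line is a single established culture and stands for that line rather than for its tumor type.

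The region between DLK1 and DIO3 is imprinted: the paternal chromosome expresses the protein-coding genes DLK1, RTL1 and DIO3, whereas the maternal chromosome expresses long non-coding RNAs such as MEG3 and MEG8 together with a large number of miRNAs. RTL1 encodes a retrotransposon-derived protein needed in the placenta, and miRNAs transcribed from the opposite strand of its coding sequence can pair with its transcript along their whole length. A miRNA hairpin yields a product from its 5′ arm (5p) and one from its 3′ arm (3p), and usually one of them is retained in Argonaute and accumulates. The miRNAs of this region are known to be abundant in brain, placenta and embryonic tissues.

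The 10 miRNAs come from 8 hairpins on the plus strand of chromosome 14 that span 42.1 kb (hg38). MIR493 (100869060 to 100869148) and MIR337 (100874493 to 100874585) lie downstream of MEG3 (100779410 to 100861031) in introns of the long non-coding RNA gene MIR493HG. MIR431 (100881007 to 100881120), MIR433 (100881886 to 100881978), MIR127 (100882979 to 100883075), MIR432 (100884483 to 100884576) and MIR136 (100884702 to 100884783) lie within 3.78 kb of each other opposite to the coding sequence of RTL1, which is on the minus strand (100879753 to 100903722). Of these, MIR127 overlaps an exon of MIR493HG and the other 4 lie in its introns. MIR370 (100911139 to 100911213) is farther downstream in introns of MEG8 and MIR493HG. A distal cluster with 74 listed mature miRNAs under 39 hairpin names follows farther downstream. Numbered copies such as hsa-miR-1185-1 and hsa-miR-1185-2 share a name in this count.

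The mature sequences of the 10 miRNAs are shown because the seed, bases 2 to 8 from the 5′ end, sets which transcripts a miRNA recognizes. They are written 5′ to 3′ as RefSeq gives them for GRCh38.p14, with the seed in capitals.
hsa-miR-493-3p: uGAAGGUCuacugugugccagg
hsa-miR-337-3p: cUCCUAUAugaugccuuucuuc
hsa-miR-337-5p: gAACGGCUucauacaggaguu
hsa-miR-431-5p: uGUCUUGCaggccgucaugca
hsa-miR-433-3p: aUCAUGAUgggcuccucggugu
hsa-miR-127-3p: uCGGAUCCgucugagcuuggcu
hsa-miR-127-5p: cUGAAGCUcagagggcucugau
hsa-miR-432-5p: uCUUGGAGuaggucauugggugg
hsa-miR-136-5p: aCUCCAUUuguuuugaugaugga
hsa-miR-370-3p: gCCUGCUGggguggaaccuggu

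The 10 seeds all differ from each other, and none was found in any other of the 2370 human mature miRNAs of the RefSeq table, in which 67.9% of all miRNAs have a seed of their own. The miRNAs thus share a position but no seed. With bases 2 to 7 only, 4 of the 10 had a partner: hsa-miR-337-3p shared these bases with hsa-miR-202-5p, hsa-miR-337-5p with hsa-miR-4485-3p, hsa-miR-433-3p with hsa-miR-7154-5p and hsa-miR-127-5p with hsa-miR-7843-3p. Their base composition ranged widely, from 34.8% G and C in hsa-miR-136-5p to 68.2% in hsa-miR-370-3p.

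Between 1173902 and 12137452 reads were assigned to the listed miRNAs per library, with a median of 2670030, and values are given as reads per 1000000 of these (CPM). Where no read was found, up to 3 reads remain possible, equal to 0.247 CPM at the greatest and 2.56 CPM at the least depth. Marker miRNAs were checked against the labels. The 4 neuronal or neuroendocrine markers (hsa-miR-124-3p, hsa-miR-9-5p, hsa-miR-7-5p and miR-375) summed to 90989 and 58272 CPM in BE(2)C and to between 1326 and 4586 CPM elsewhere, but hsa-miR-124-3p, the neuron-defining one, was at most 28.1 CPM. The 3 liver markers summed to 15835 and 16456 CPM in HepG2, 4762 and 4486 CPM in A549 and between 132 and 2271 CPM in the other lines. The HepG2 sum was carried by hsa-miR-192-5p, whereas hsa-miR-122-5p, the most liver-specific of them, was at 64.0 and 50.0 CPM in HepG2. The third, hsa-miR-194-5p, was at 219 and 240 CPM in HepG2 but at 1883 and 1899 CPM in A549. The melanocyte marker hsa-miR-211-5p had 0 reads in both MV3 libraries and hsa-miR-204-5p at most 1.70 CPM there. These markers thus gave no support for the melanoma label of MV3, a line listed by the authors as an amelanotic melanoma. Across the lines, hsa-miR-204-5p was highest in BE(2)C, at 70.2 and 41.0 CPM. The 3 epithelial markers summed to between 828 and 1352 CPM in A549 and HepG2, 129 CPM in PANC1 and between 29.0 and 54.2 CPM in the other lines. The A549 and HepG2 sums were mostly hsa-miR-200b-3p (794 and 833 CPM, 1219 and 1276 CPM). In contrast, hsa-miR-141-3p was at most 0.485 CPM in these lines but 4.21 and 4.79 CPM in ES2. The third, hsa-miR-200c-3p, was at 34.1 and 61.6 CPM in A549, 83.2 and 75.9 CPM in HepG2 and 39.7 and 36.6 CPM in ES2. The sum of the 4 mesenchymal markers ranged from 44.1 CPM in PANC1 to 25192 CPM in BE(2)C replicate 1. The BE(2)C sum was mostly hsa-miR-143-3p (23979 and 18824 CPM), whereas hsa-miR-199a-3p was highest in MV3 (8771 and 8078 CPM). The 3 blood markers, other than in BE(2)C, summed to above 10 CPM only in ES2 (326 and 286 CPM), where nearly all was hsa-miR-142-3p. The part of these cell type differences in the levels below was not tested.

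The 10 miRNAs together made up a large share of the BE(2)C libraries, were moderately abundant in PANC1, lower in A549 and nearly absent from ES2, MV3 and HepG2. Their summed level was 192642 and 147903 CPM in the 2 BE(2)C libraries (170273 ± 31635, SD, n = 2), that is 19.3% and 14.8% of all miRNA reads. It was 4897 CPM in PANC1 and 795 and 842 CPM in A549 (819 ± 33.2, SD, n = 2). The sum was 10.0 and 8.73 CPM in HepG2, 0 and 9.59 CPM in ES2 and 6.81 and 1.29 CPM in MV3. BE(2)C, PANC1 and A549 were separated from each other and from the remaining lines by far more than the BE(2)C and A549 replicates differed. Among the low lines, both HepG2 libraries lay above both MV3 libraries, and the ES2 libraries overlapped both lines. The distance of HepG2 from ES2 and MV3 depended on scaling: with TMM factors (trimmed mean of M-values) over all libraries the mean sums were 50.3 in HepG2, 3.62 in ES2 and 2.21 in MV3. Whether fewer cells of a line held a miRNA or each cell held less of it cannot be told apart in libraries of many cells.

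**Figure D1:**
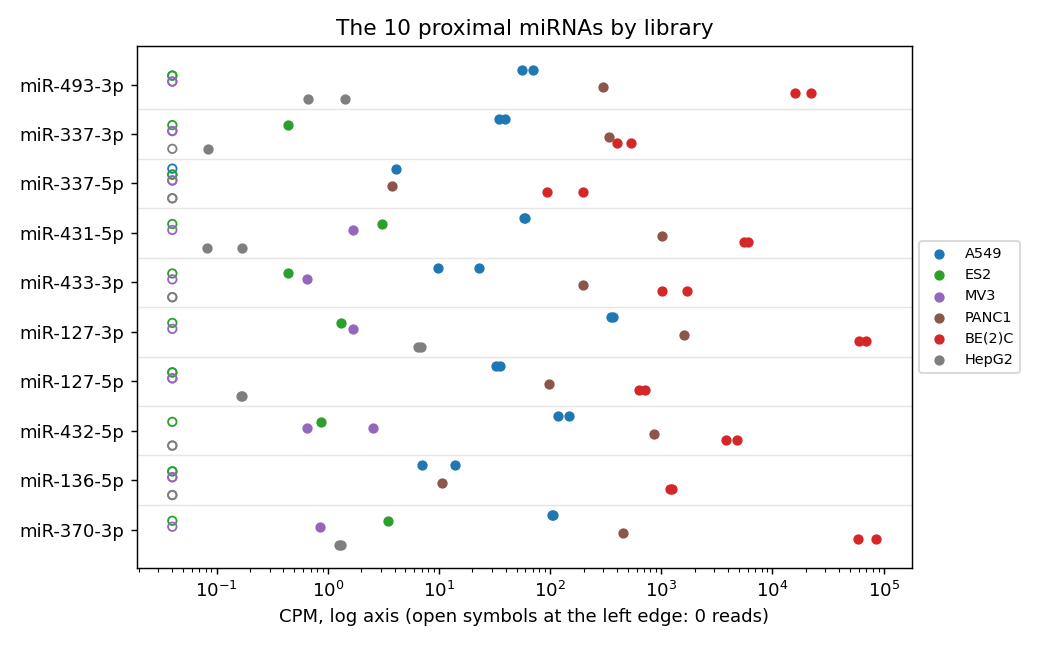
Level of each of the 10 miRNAs in the 11 libraries, in CPM on a log axis. Each filled point is 1 library, colored by cell line, and open points at the left edge are libraries with 0 reads of that miRNA. The red BE(2)C points lie to the right of all others in every row, narrowly so for miR-337-3p, and the ES2, MV3 and HepG2 points lie below 10 CPM in every row.

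Both BE(2)C libraries lay above all 9 other libraries for 10 of the 10 miRNAs. Over all 546 miRNAs whose mean reached 10 CPM in any line, this held for 37.4%, and nothing is read from the difference because the levels were known when the miRNAs were named. The margin between the lowest BE(2)C library and the highest other library was very unequal. It was 129-fold for hsa-miR-370-3p, 85.8-fold for hsa-miR-136-5p and 53.1-fold for hsa-miR-493-3p but 1.19-fold for hsa-miR-337-3p.

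The upstream pair of hairpins is MIR493 and MIR337. The level of hsa-miR-493-3p was 22385 and 15847 CPM in BE(2)C, 298 CPM in PANC1, and 70.4 and 55.8 CPM in A549. HepG2 had 17 and 8 reads of it (1.43 and 0.659 CPM), and ES2 and MV3 had 0 reads in all 4 libraries. The groups did not overlap, and the mean of BE(2)C was 64.0-fold the PANC1 value.

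In contrast, hsa-miR-337-3p, encoded about 5 kb downstream, was at 400 and 534 CPM in BE(2)C and at 337 CPM in PANC1. The A549 libraries held 39.3 and 34.9 CPM, and no library of ES2, MV3 or HepG2 had more than 1 read. BE(2)C and PANC1 were close, with a ratio of the means of 1.39, less than for any other of the 10 miRNAs. The opposite arm, hsa-miR-337-5p, was at 93.2 and 198 CPM in BE(2)C, 3.80 CPM in PANC1 and 4.12 and 0 CPM in A549, with 0 reads in the 6 libraries of the other lines. It was the only one of the 10 that did not separate A549 from the 3 low lines.

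Among the miRNAs opposite to RTL1, hsa-miR-127-3p was by far the most abundant. It reached 70105 and 59481 CPM in BE(2)C, 1608 CPM in PANC1, and 349 and 370 CPM in A549. In HepG2 it had 82 and 79 reads (6.90 and 6.51 CPM), and in the ES2 and MV3 libraries at most 3 reads. Its rank among all miRNAs was 3 in both BE(2)C libraries, against rank 58 in PANC1 and ranks 82 and 77 in A549. Its opposite arm, hsa-miR-127-5p, was at 635 and 711 CPM in BE(2)C, 97.3 CPM in PANC1, and 35.6 and 32.5 CPM in A549. HepG2 had 2 reads of hsa-miR-127-5p in each library and ES2 and MV3 had 0.

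The other RTL1-antisense miRNAs were lower and less unequal between BE(2)C and PANC1, except for hsa-miR-136-5p. The level of hsa-miR-431-5p was 5982 and 5568 CPM in BE(2)C, 1024 CPM in PANC1, and 57.7 and 59.7 CPM in A549. That of hsa-miR-432-5p was 4768 and 3851 CPM in BE(2)C, 865 CPM in PANC1, and 117 and 149 CPM in A549. These values place PANC1 nearer to BE(2)C than to A549 on a log scale, with BE(2)C 5.64-fold and 4.98-fold above PANC1. The level of hsa-miR-433-3p was 1013 and 1717 CPM in BE(2)C, 198 CPM in PANC1, and 9.74 and 22.8 CPM in A549.

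The last miRNA of this group, hsa-miR-136-5p, was at 1242 and 1207 CPM in BE(2)C but at 10.6 CPM in PANC1 and at 7.12 and 14.1 CPM in A549. PANC1 thus lay between the 2 A549 libraries, and BE(2)C was 116-fold above either line. In ES2 and MV3, hsa-miR-431-5p, hsa-miR-432-5p and hsa-miR-433-3p had at most 7 reads in a library and hsa-miR-136-5p had 0, and in HepG2 the 4 miRNAs had at most 2 reads.

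The most downstream of the 10, hsa-miR-370-3p, was at 86019 and 58788 CPM in BE(2)C, 455 CPM in PANC1, and 105 and 103 CPM in A549. HepG2 held 1.26 and 1.32 CPM, ES2 0 and 3.49 CPM and MV3 0.852 and 0 CPM. With a 159-fold difference between BE(2)C and PANC1 it was the most unequal of the 10, and it ranked 2 and 4 among all miRNAs of the BE(2)C libraries against 101 in PANC1.

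PANC1 lay above both A549 libraries for 8 of the 10 miRNAs, with the exceptions of hsa-miR-337-5p and hsa-miR-136-5p, against 56.8% of all miRNAs. The ratio of PANC1 to the A549 mean ran from 0.997 for hsa-miR-136-5p to 17.4 for hsa-miR-431-5p. Both A549 libraries lay above all 6 libraries of ES2, MV3 and HepG2 for 9 of the 10 miRNAs, with the exception of hsa-miR-337-5p, against 20.3% of all miRNAs. A mean of at least 10 CPM was reached by 9 of the 10 in A549, by 9 in PANC1, by 10 in BE(2)C and by 0 in the other 3 lines.

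The make-up of the group differed between the lines as well. In A549, hsa-miR-127-3p accounted for 43.9% of the summed reads in either library, followed by hsa-miR-432-5p with 14.7% and 17.7%. In PANC1 it accounted for 32.8%, followed by hsa-miR-431-5p with 20.9%. In BE(2)C, hsa-miR-370-3p took 44.7% and 39.7% and hsa-miR-127-3p 36.4% and 40.2%, so that their order changed between the 2 libraries. In A549, hsa-miR-370-3p took only 13.2% and 12.3%, and in PANC1 9.29%.

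The BE(2)C libraries were compared with each other because they differed more than those of any other line. Of 401 miRNAs with a mean of at least 10 CPM in BE(2)C, 24.4% differed over 2-fold between the libraries, against 2.94% in A549, 5.32% in ES2, 5.59% in MV3 and 0.602% in HepG2. Of the 10 miRNAs, 1 differed over 2-fold, namely hsa-miR-337-5p, which was 2.12-fold higher in replicate 2. The difference of replicate 2 from replicate 1, in log2(CPM + 1), had a median of −0.07 over the 10 miRNAs and 0.37 over all 401.

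The most abundant of the 10 were lower in replicate 2: hsa-miR-370-3p by −0.55, hsa-miR-493-3p by −0.50, hsa-miR-432-5p by −0.31 and hsa-miR-127-3p by −0.24 on that scale. Others were higher, among them hsa-miR-433-3p by 0.76 and hsa-miR-337-3p by 0.42. In all, 4 were higher and 6 lower in replicate 2, against 267 of all 401 that were higher. The distal cluster was higher in replicate 2 for 51 of its 63 measured miRNAs, with a median of 0.69. Markers of other cell types also differed between these libraries: hsa-miR-122-5p was at 823 CPM in replicate 1 and 6.0 CPM in replicate 2, and the 3 blood markers, nearly all of it hsa-miR-451a, known from red blood cells, summed to 301 and 46.5 CPM. The 3 epithelial markers summed to 34.7 and 34.3 CPM, the 4 mesenchymal markers to 25192 and 21750 CPM and the 3 liver markers to 2271 and 842 CPM. The part of this difference in the values of the 10 miRNAs was not tested.

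**Figure D2:**
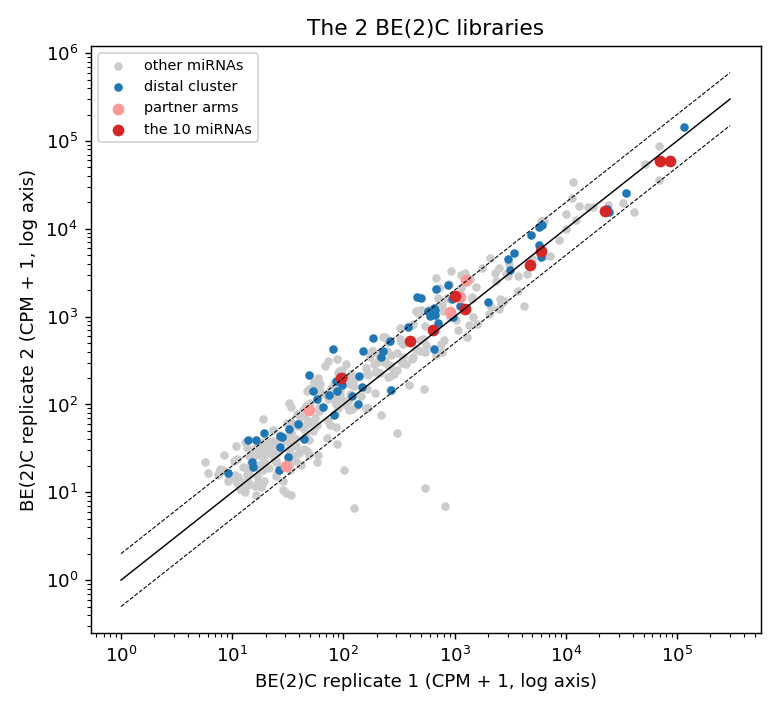
Level of each miRNA with a mean of at least 10 CPM in BE(2)C, as CPM + 1 in replicate 2 against replicate 1, both on log axes. The solid line marks equal values and the dashed lines a 2-fold difference. Red points are the 10 miRNAs, of which only miR-337-5p lies past a dashed line, and blue points are the distal cluster, most of which lie above the solid line.

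The distal cluster followed the same order of BE(2)C, PANC1 and A549 but not in the same proportion, and the order of the low lines was another. Its 74 miRNAs summed to 267218 ± 20778 CPM in BE(2)C (SD, n = 2), 21417 CPM in PANC1 and 6782 ± 199 CPM in A549 (SD, n = 2). MV3 held 301 ± 5.24 CPM (SD, n = 2), ES2 6.61 and 63.2 CPM and HepG2 14.7 ± 1.40 CPM (SD, n = 2). MV3, which had 8 and 2 reads of the 10 proximal miRNAs, thus had 358 and 461 reads of the distal ones.

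Expressed as a share of proximal and distal reads together, the 10 miRNAs made up 43.3% and 34.4% in BE(2)C, 18.6% in PANC1, and 10.3% and 11.3% in A549. In MV3 the share was 2.19% (95% Wilson interval 1.11% to 4.25%) and 0.432% (0.119% to 1.56%). In ES2 replicate 2 it was 13.2% (22 of 167 reads), and in HepG2 it was 38.9% and 38.8% (119 of 306 and 106 of 273 reads). The intervals cover counting error only. Both BE(2)C shares lay above those of PANC1, A549 and MV3, and both MV3 shares lay below those of A549. The 2 BE(2)C shares differed from each other by more than the single PANC1 share did from those of A549, and HepG2, with few reads, lay between the 2 BE(2)C libraries. Both BE(2)C libraries lay above all others for 53 of the 63 distal miRNAs with at least 10 CPM in a line, against the 37.4% of all miRNAs given above. Some of the 63 passed this minimum only through BE(2)C, such as hsa-miR-541-5p, with 65.2 and 92.7 CPM there and 0 in all other libraries. Nothing is read from this count either.

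**Figure D3:**
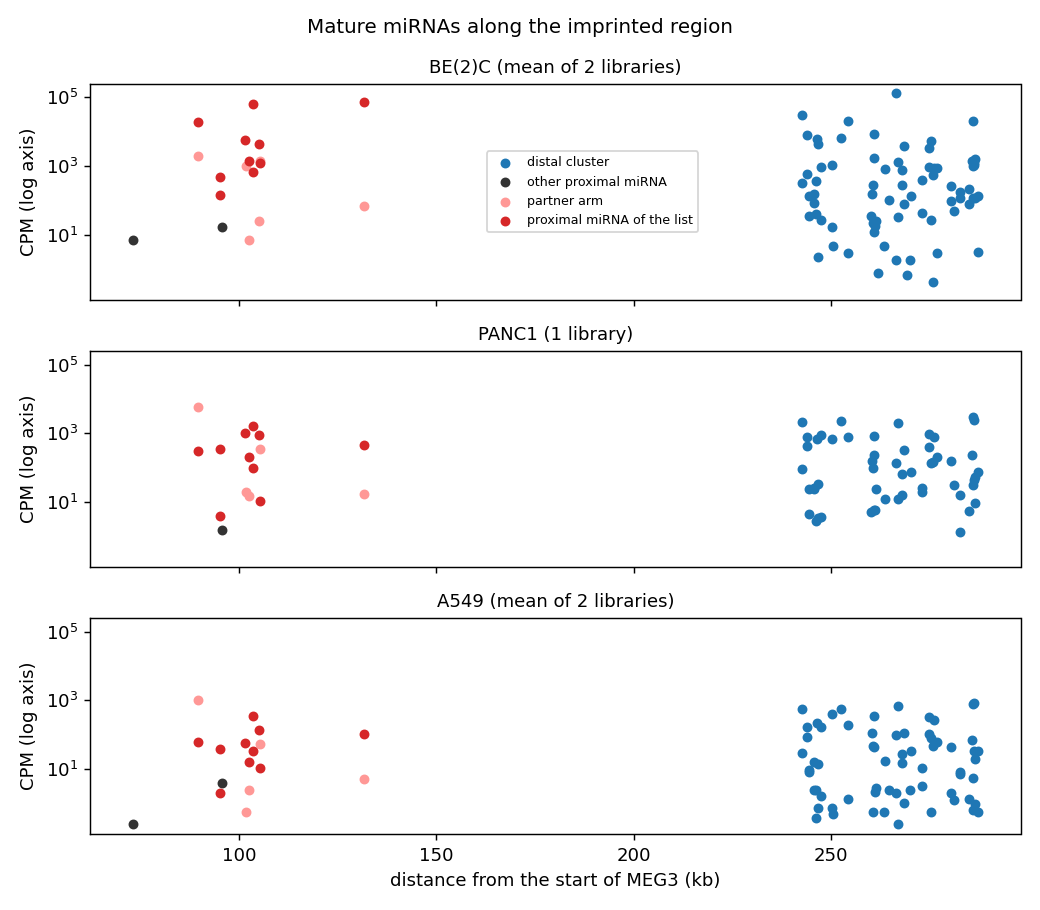
Level of the mature miRNAs of the region, in CPM on a log axis, against the distance of each from the start of MEG3 in kb, for BE(2)C, PANC1 and A549. Red points are the 10 miRNAs, pink points the other arms of their hairpins, dark points other miRNAs nearby and blue points the distal cluster, and miRNAs without reads are not drawn. In BE(2)C the red points of miR-370-3p and miR-127-3p exceed all but 1 of the blue ones, whereas in PANC1 and A549 the pink point of miR-493-5p is the highest of the proximal ones.

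Of the other miRNAs near the 10, miR-665, encoded between MIR337 and MIR431, was at 9.97 and 22.9 CPM in BE(2)C and at most 4.87 CPM elsewhere. The MEG3-exonic hsa-miR-770-5p did not reach 10 CPM in any library. The far end of the region behaved differently from the 10: hsa-miR-1247-5p, encoded next to DIO3, was at 56.6 and 41.3 CPM in A549 and 107 CPM in PANC1 but at 1.86 and 4.28 CPM in BE(2)C. Its opposite arm, hsa-miR-1247-3p, was at 16.1 and 11.9 CPM in BE(2)C, 14.8 CPM in PANC1 and 0 in A549.

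The other arms of the hairpins, which are not among the 10, did not all follow them. The 6 opposite arms summed to 3402 and 5532 CPM in BE(2)C, 6173 CPM in PANC1, and 1028 and 1109 CPM in A549, so that PANC1 lay above both BE(2)C libraries. Both BE(2)C libraries lay above all others for 4 of the 6, against 37.4% of all miRNAs. The exceptions were hsa-miR-493-5p and hsa-miR-433-5p, both of which were highest in PANC1.

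The sequences of some of these opposite arms are given as above, with the seed in capitals. The opposite arm of hsa-miR-493-3p shares bases 2 to 7 with hsa-let-7a-2-3p, hsa-let-7c-3p and hsa-let-7g-3p.
hsa-miR-493-5p: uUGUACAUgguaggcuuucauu
hsa-miR-136-3p: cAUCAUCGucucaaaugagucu
hsa-miR-431-3p: cAGGUCGUcuugcagggcuucu
hsa-miR-370-5p: cAGGUCACgucucugcaguuac

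The level of hsa-miR-493-5p was 5786 CPM in PANC1, 957 and 1055 CPM in A549, and 1277 and 2621 CPM in BE(2)C. PANC1 was the highest, and A549 and BE(2)C differed by less than the BE(2)C libraries did among themselves. The level of hsa-miR-431-3p was 915 and 1114 CPM in BE(2)C, 19.6 CPM in PANC1, and 1.12 and 0 CPM in A549. For hsa-miR-136-3p it was 1125 and 1686 CPM in BE(2)C, 336 CPM in PANC1 and 63.3 and 46.6 CPM in A549.

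The use of the arms was then compared as the ratio of 5p to 3p reads within a hairpin, which does not depend on how libraries are scaled. The lines with 2 libraries give 10 pairs of lines, and hairpins of the 10 miRNAs had at least 20 reads in all 4 libraries in 3 of these pairs, all of which include BE(2)C or HepG2. A hairpin was called where limma and edgeR's quasi-likelihood test both gave an adjusted p under 0.05 over all hairpins of the pair. For 6 of the 8 hairpins only 1 arm is among the 10, and the level of that arm was known when it was listed. The choice between arms could thus favor a difference for these, whereas both arms of MIR127 and MIR337 are listed.

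In BE(2)C, the arm ratio of 5 of the 8 hairpins differed from that in A549, in every case toward the 5p arm being rarer: MIR493, MIR370, MIR433, MIR431 and MIR127. Of all 161 hairpins compared between these lines, 25.5% were called in either direction, and 82 of the 161 had a lower ratio in BE(2)C against 6 of the 8. The median size of the difference was 3.81 on the log2 scale over the 8 hairpins and 1.78 over all 161. Because most of the 8 were listed by a single arm of known level, nothing is read from setting them against all 161.

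MIR493 changed its dominant arm. The 3p arm, which is the listed one, made up 6.86% and 5.02% of the reads in A549 and 4.91% in PANC1 but 94.6% and 85.8% in BE(2)C. The few HepG2 reads were mostly 3p as well, with 2 of 19 and 3 of 11 reads from the 5p arm, whereas all 17 reads in ES2 replicate 2 were 5p. ES2 replicate 1 and MV3 replicate 1 had 0 reads of this hairpin, and MV3 replicate 2 had 2, both 5p. The 5p share in HepG2 replicate 2 had a wide 95% Wilson interval, from 9.75% to 56.6%. The libraries of A549 and PANC1 thus read mainly 5p and those of BE(2)C mainly 3p, with few or no reads in the other lines. The part of line and of preparation cannot be told apart. The difference of BE(2)C from A549 was −7.36 ± 0.75 (log2 ratio ± SE, n = 2 libraries per line, adjusted p = 0.00530 in limma and 0.00634 in edgeR), which ranked 6 in size among the 161. A change of the dominant arm was seen for 17 of the 161 hairpins, and MIR493 was the only one of the 8.

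**Figure D4:**
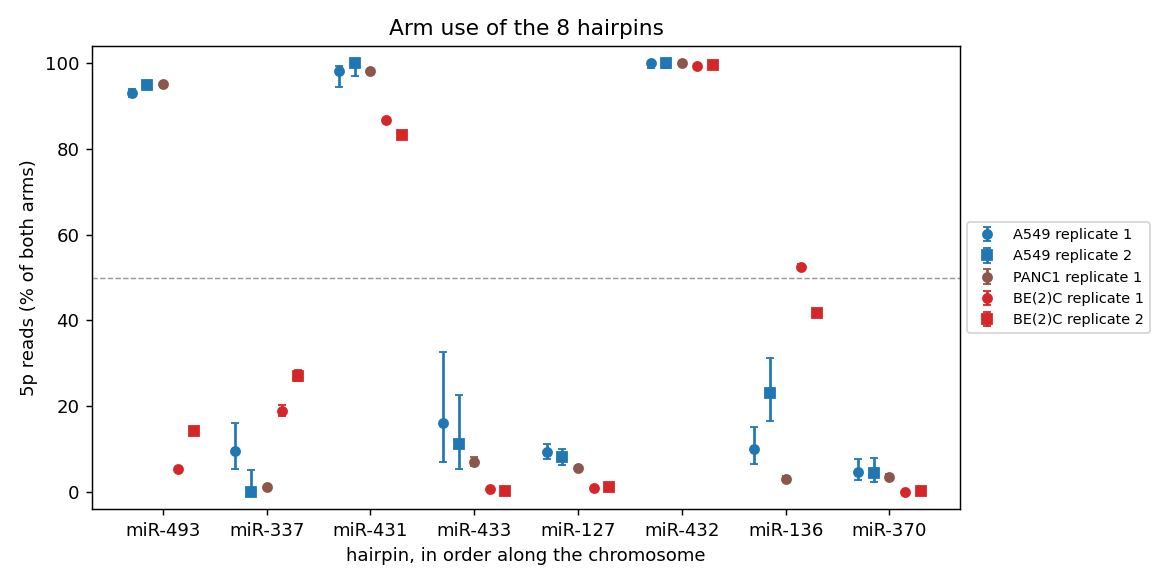
Share of reads from the 5p arm, in percent of both arms, for the 8 hairpins in order along the chromosome. Each point is 1 library of A549, PANC1 or BE(2)C with its 95% Wilson interval, and the dashed line marks equal use of both arms. The 3 NEXTflex libraries of miR-493 lie above 90% and the 2 BE(2)C libraries below 15%, and the BE(2)C points of miR-136 lie on either side of the dashed line.

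The hairpins of miR-370, miR-433 and miR-127 were dominated by the 3p arm in A549, PANC1 and BE(2)C, with the lowest 5p shares of these 3 lines in BE(2)C. HepG2 had 15 and 16 reads of MIR370, all of them 3p, and none of MIR433. For MIR370, the 5p share was 4.75% and 4.48% in A549, 3.63% in PANC1, and 0.0562% and 0.147% in BE(2)C. The log2 ratio differed by −5.79 ± 0.70 (SE, adjusted p = 0.00977 in limma and 0.0109 in edgeR). For MIR433, the 5p share was 16.1% and 11.3% in A549, from 31 and 53 reads, 6.98% in PANC1, and 0.729% and 0.355% in BE(2)C. This difference was −5.03 ± 0.68 (SE, adjusted p = 0.0128 in limma and 0.0109 in edgeR).

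For MIR127, the 5p share was 9.24% and 8.08% in A549, 5.70% in PANC1, 0.898% and 1.18% in BE(2)C, and 2.38% and 2.47% in HepG2. BE(2)C differed from A549 by −3.19 ± 0.56 (SE, adjusted p = 0.0152 in limma and 0.0123 in edgeR), and HepG2 from A549 by −1.62 ± 0.31 (SE, adjusted p = 0.0172 in limma and 0.0316 in edgeR). The latter call was lost without HepG2 replicate 1 or 2 (limma, adjusted p = 0.126 and 0.114). In the pair of HepG2 and A549, 44.2% of 120 hairpins were called. HepG2 and BE(2)C, which share the preparation, differed by 1.57 ± 0.33 (SE, adjusted p = 0.0580 in limma and 0.316 in edgeR), which was not called, with 3.65% of 137 hairpins called in that pair. By limma it passed the threshold with a prior of 1 read (adjusted p = 0.0272). It also did without BE(2)C replicate 1 or 2, where the only replicates left were those of HepG2. With any 1 library left out, the difference was between 1.37 and 1.77.

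MIR431 was dominated by the 5p arm in all 3 lines. The 5p share was 98.1% and 100% in A549, where only 3 and 0 reads came from the 3p arm, 98.1% in PANC1, and 86.7% and 83.3% in BE(2)C. The difference was −4.19 ± 0.98 (SE, adjusted p = 0.0323 in limma and 0.0406 in edgeR). It was past the threshold in none of the 4 fits that left out 1 library, with adjusted p from 0.0560 to 0.151 in limma, nor was it with a prior of 0.1 read. MIR493 and MIR370 stayed past the threshold in the 2 fits without a BE(2)C library and were lost without either A549 library (adjusted p from 0.0560 to 0.0658 in limma). MIR433 and MIR127 stayed past it only without BE(2)C replicate 2 (adjusted p of the other 3 fits from 0.0598 to 0.0784 in limma). The direction was kept in all of them.

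MIR136, MIR337 and MIR432 were not called. The 5p share of MIR136 was 10.1% and 23.2% in A549, 3.05% in PANC1, and 52.5% and 41.7% in BE(2)C, a difference of 2.25 ± 0.75 (SE, adjusted p = 0.0746 in limma). For MIR337 it was 9.48% and 0% in A549, 1.11% in PANC1, and 18.9% and 27.1% in BE(2)C, a difference of 3.43 ± 1.40 (SE, adjusted p = 0.127 in limma). The A549 values of MIR337 rest on 11 and 0 reads of the 5p arm, and the difference was 5.42 without A549 replicate 1 and 1.43 without A549 replicate 2. MIR432 was 100% 5p in A549 and PANC1 and 99.4% and 99.5% 5p in BE(2)C, with a difference of −1.78 ± 0.58 (SE, adjusted p = 0.0712 in limma). A549 had 0 reads of its 3p arm, and the value depended on the prior: it was −0.79 with a prior of 1 read (adjusted p = 0.346 in limma), −4.10 with 0.1 read (adjusted p = 0.0228 in limma) and −4.77 in edgeR (adjusted p = 0.126).

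**Figure D5:**
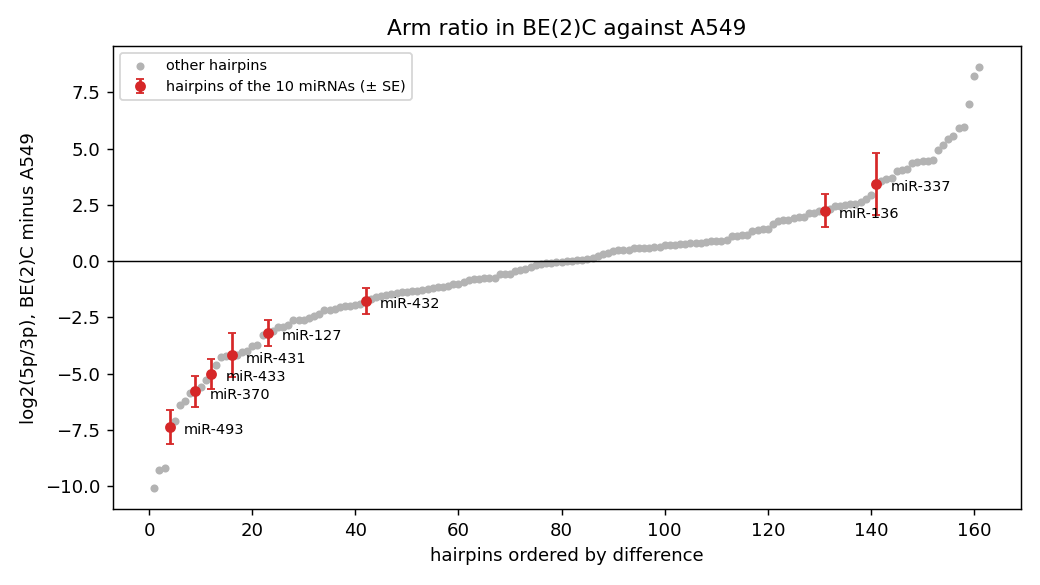
Difference in log2(5p/3p) between BE(2)C and A549 for the 161 hairpins with at least 20 reads in all 4 libraries, ordered by size. Red points with bars (± SE) are the 8 hairpins of the 10 miRNAs, gray points the other hairpins, and the horizontal line marks no difference. Of the red points, 6 lie below the line, the lowest at −7.36 for miR-493, and miR-136 and miR-337 lie above it.

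Hairpins were called far more often between preparations than within them, but the median size of the difference was less clearly separated. By limma alone, the share of hairpins called was between 28.3% and 68.5% in the 6 pairs that set a NEXTflex line against a Novogene line. It was between 0% and 7.30% in the 4 pairs within a preparation. The median size (log2) was between 1.65 and 2.11 in the pairs across preparations. It was 1.33 for BE(2)C and HepG2, the only pair within Novogene, and 0.508, 0.699 and 0.794 in the pairs of NEXTflex lines. Calls also depend on the spread between the libraries of a line, and the part of the preparation was not tested. No hairpin of the 10 miRNAs had enough reads in ES2 or MV3 for a comparison with A549, and the single PANC1 library entered no test, so that none of the 8 was compared between 2 NEXTflex lines.

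Across the 11 libraries, the miRNAs whose profile was most like the mean profile of the 10 were hsa-miR-299-3p (Pearson r = 0.996), hsa-miR-377-5p (0.996), hsa-miR-370-5p (0.996), hsa-miR-410-3p (0.995) and hsa-miR-134-5p (0.994). The correlation was computed on log2(CPM + 1), and its points share the library preparation and the large step between BE(2)C and the other lines. All 5 are encoded in the same region, 4 of them in the distal cluster, and 19 of the 20 most similar of 536 candidates lie on chromosome 14. The distal cluster alone supplied 63 of these candidates, and the full share of chromosome 14 among them was not counted. Nothing is read from the number, because the levels in BE(2)C were known when the 10 were named. The opposite arm of hsa-miR-370-3p ranked among these 5, but that of hsa-miR-493-3p, hsa-miR-493-5p, ranked 61 with r = 0.893.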

How the data were processed

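Small RNA-seq tables of mature miRNAs were used, 1 table for each of 6 lines. Per the submitters' processing notes, the authors used cutadapt 1.14, Bowtie2 2.3.2, SAMtools 1.5, featureCounts 1.5.3 and edgeR 3.30.3 with hg38; which settings applied to the miRNA tables is not given in the sources used here. The deposited PANC1 values were CPM, and the other 5 deposited tables held a scaled signal, CPM divided by a factor set within each table. All nonzero values (100%) were whole multiples of 1 read (tolerance 0.001), so whole reads were recovered, entries with the same mature miRNA name were added up and each library was rescaled to 1000000. The design had assumed CPM as deposited.

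Levels were described by library, as mean ± SD (n = 2) and with 95% Wilson intervals. Arm ratios, log2((5p reads + 0.5)/(3p reads + 0.5)), were compared with limma 3.58.1 (eBayes with a trend, two-sided, Benjamini-Hochberg adjustment over all hairpins with at least 20 reads in each of the 4 libraries, threshold 0.05) in R 4.3.3. Each arm had to be on a single row. On simulated data limma made false calls. A call therefore also required edgeR 4.0.16 (quasi-likelihood test on the reads), a rule added after the data were seen. The p-values measure the spread between cultures of 1 line.

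The members and lists were chosen with earlier results of these data known. The text names the 10 miRNAs, the other arms of their hairpins, neighboring miRNAs, the 5 with the highest correlation to their mean profile, and marker miRNAs. Of these, the RefSeq sequences were tabulated only for the 10 miRNAs and their 6 opposite arms. Hairpin positions were read from GENCODE annotation of hg38. Alternatives were TMM factors, DESeq2 1.42.0 size factors, deposited values, other level and read minimums, pseudocounts, a replicate block and leaving out each library. Python 3.11.15 was used for summaries.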

Additional observations from a re-analysis of the deposited data

Results flagged for a closer look

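In all, 5 results met a rule for a closer look, each because a hairpin's arm ratio differed between A549 and BE(2)C by a test of that difference. The differences in log2(5p/3p), BE(2)C minus A549, were −7.36 for MIR493, −5.79 for MIR370, −5.03 for MIR433, −4.19 for MIR431 and −3.19 for MIR127, with 2 libraries per line. Line and library preparation cannot be told apart in any of them. How each call depended on single libraries is given above. The value for MIR431 rests on 3 and 0 reads of its 3p arm in A549. For all of them but MIR127, only a single arm is among the listed miRNAs, and its level was known when it was listed. MIR493 was the only one of the 5 whose dominant arm changed, and 12 of the 17 hairpins that changed their dominant arm in this comparison were called by both tools.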

How the results depend on the processing

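The order BE(2)C, PANC1, A549 and then the 3 low lines held under every scaling tried, but the sums moved. With TMM factors over all libraries (0.166 and 0.217 in HepG2, 1.02 to 1.87 in the others) the 10 miRNAs summed to 112272 CPM in BE(2)C, 2775 CPM in PANC1, 772 CPM in A549, 50.3 CPM in HepG2, 3.62 CPM in ES2 and 2.21 CPM in MV3. With DESeq2 size factors the sums were 114058 in BE(2)C, 2900 in PANC1, 56.3 in HepG2, 3.24 in ES2 and 2.00 in MV3. The count of miRNAs present fell to 3 in A549 at a minimum of 100 CPM. At 1 CPM it was 2 in ES2, 1 in MV3 and 3 in HepG2, and with TMM factors 1 in HepG2.

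The number of hairpins with a different arm ratio by limma depended on single libraries. Where 1 was left out, the lone library was assumed to vary like those of the other line. The number was 46 for A549 and BE(2)C and 2 to 32 with a library left out (2 without A549 replicate 1, 9 without A549 replicate 2, 4 without BE(2)C replicate 1). It was 61 for A549 and HepG2 and 13 to 74 with a library left out (15 and 13 without HepG2 replicate 1 and 2). For BE(2)C and HepG2 it was 10, but 36 with a prior of 1 read, 20 at a minimum of 5 reads, 5 with edgeR, 5 by both tools, and 0 to 65 with a library left out (0 without either HepG2 replicate, 65 and 42 without BE(2)C replicate 1 and 2). The cause was not tested.

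Replicate numbers did not pair the libraries: deviations of same-numbered libraries correlated between −0.05 and 0.109. With the replicate number as a block, 57 hairpins were called for A549 and BE(2)C, 71 for A549 and HepG2 and 36 for BE(2)C and HepG2, and MIR337 passed the threshold (limma, adjusted p = 0.00569). No result changed its direction.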
